A study of Mus musculus with 29 samples.

Results

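The CD150-positive stem cell fraction of Mysm1-/-Puma-/- mice was sequenced as 7 libraries, of which 3 carry the letter P in their names (P1, P2 and P3) and 4 the letter B (B1, B3, B5 and B6). These 7, out of 29 libraries in the series, were chosen by their names alone, and the comparison was P against B. Both groups carry the same labels: C57BL/6 mice aged 8 to 12 weeks, loss of Mysm1, a deubiquitinase of histone H2A, and loss of Puma, the cell death protein encoded by Bbc3. Both were sorted from bone marrow as lineage-negative, cKit-positive, Sca1-positive, CD150-positive cells, and their RNA was depleted of ribosomal RNA. What the letters P and B stand for is not given in the sources used here, so the letter and whatever handling, day or animals went with it cannot be told apart.

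The other 10 CD150-positive libraries were 4 of Mysm1-/-Puma+/- (A), 2 of Puma-/- (C), and 4 of wild type. Among the wild-type libraries a single one is named W1 and 3 carry the letter D (D1, D2 and D3-4), so W1 against D is a comparison within 1 genotype that shares no library with P against B. No label ties a library to an animal of its own, so the p-values measure the spread between libraries, which may be technical. Library totals were 14830752 to 23333401 counts in P and 13948532 to 25281099 counts in B. No pair of libraries within a group agreed within sampling noise (chi-square of 30.3 or more for each degree of freedom).

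Genes of the sorted cells were detected in both groups, and so were genes of other progenitors, so these values do not test the purity of the sort. The stem cell genes Mecom and Hlf stood at 98.6 to 112 and 134 to 180.5 TMM-scaled CPM, a count scaled to the size of its library, in P, and at 97.5 to 129 and 142 to 179 CPM in B. Kit stood at 719.9 to 821 CPM in P and 585 to 755 CPM in B. Slamf1, which encodes CD150, stood at 11.2 to 16.6 CPM in P and 15.4 to 20.2 CPM in B. Ly6a, the Sca1 gene, had a log2 fold change of P over B of -0.77 (adjusted p = 0.298, edgeR quasi-likelihood test). Among multipotent progenitor genes, Cd48 stood at 17.5 to 26.8 CPM in P and 11.4 to 23.1 CPM in B. Flt3 stood at 96.7 to 191 CPM in P and 30.2 to 80.8 CPM in B. Mysm1 counts were 76.6, 67.7 and 87.7 CPM in P and 84.3, 86.3, 72.3 and 87.4 CPM in B, against 96.3 to 118 CPM in A, which lacks Mysm1 too, and 111 to 125 CPM in D. Bbc3 counts were 25.2, 18.05 and 22.0 CPM in P and 16.3, 19.9, 18.6 and 15.5 CPM in B. These lay above the 2.86 to 4.16 CPM of D although the gene is labelled as deleted. Bbc3 was at 18.5 to 24.9 CPM in A and at 2.68 and 2.10 CPM in C. A count over the whole gene does not test a deletion of part of it, and neither gene passed the test between P and B (adjusted p = 0.801 and 0.567).

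Immediate early genes are transcribed within minutes of a stimulus, without new protein synthesis, when MAP kinase and calcium signals reach serum response factor and CREB bound at their promoters. Their products include the Fos and Jun subunits of the transcription factor AP-1, nuclear receptors of the Nr4a family, and phosphatases and RNA-binding proteins that end the response.

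Fos, Fosb, Jun, Nr4a1 and Ppp1r15a were the immediate early genes that rose in P, and their promoters are shown because this gene class is commonly described by the sites its promoters hold. Each runs from 250 bases before the RefSeq start to 50 after it, on the strand of the gene, in build GRCm38.p6. Capitals mark each match of the CREB half-site TGACG on either strand (CGTCA on the other). They also mark the separate pattern TGACNTCA, which holds the half-site only where N is G.
Fos (chr12:85473640-85473939, plus strand): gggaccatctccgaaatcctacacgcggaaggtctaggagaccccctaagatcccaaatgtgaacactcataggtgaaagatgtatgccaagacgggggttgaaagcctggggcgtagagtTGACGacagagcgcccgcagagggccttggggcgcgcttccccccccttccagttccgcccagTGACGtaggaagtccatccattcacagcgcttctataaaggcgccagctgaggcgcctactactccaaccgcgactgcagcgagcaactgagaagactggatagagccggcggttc
Fosb (chr7:19309996-19310295, minus strand): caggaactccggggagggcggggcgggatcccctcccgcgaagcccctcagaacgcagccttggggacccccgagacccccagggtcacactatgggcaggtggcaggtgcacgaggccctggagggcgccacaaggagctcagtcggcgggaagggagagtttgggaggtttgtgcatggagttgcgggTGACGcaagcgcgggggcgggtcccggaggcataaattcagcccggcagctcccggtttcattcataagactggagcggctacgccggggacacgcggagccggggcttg
Jun (chr4:95052173-95052472, minus strand): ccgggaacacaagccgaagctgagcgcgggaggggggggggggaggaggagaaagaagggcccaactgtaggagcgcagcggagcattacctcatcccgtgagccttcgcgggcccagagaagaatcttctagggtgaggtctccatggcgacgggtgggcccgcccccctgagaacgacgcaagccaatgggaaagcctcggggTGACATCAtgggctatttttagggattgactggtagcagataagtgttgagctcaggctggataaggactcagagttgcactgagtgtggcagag
Nr4a1 (chr15:101266596-101266895, plus strand): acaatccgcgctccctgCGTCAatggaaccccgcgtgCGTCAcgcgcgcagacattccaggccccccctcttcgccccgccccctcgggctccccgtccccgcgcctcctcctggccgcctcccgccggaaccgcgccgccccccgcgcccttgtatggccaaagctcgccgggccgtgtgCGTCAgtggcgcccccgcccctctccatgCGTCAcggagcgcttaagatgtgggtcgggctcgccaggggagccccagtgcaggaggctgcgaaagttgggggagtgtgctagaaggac
Ppp1r15a (chr7:45526219-45526518, minus strand): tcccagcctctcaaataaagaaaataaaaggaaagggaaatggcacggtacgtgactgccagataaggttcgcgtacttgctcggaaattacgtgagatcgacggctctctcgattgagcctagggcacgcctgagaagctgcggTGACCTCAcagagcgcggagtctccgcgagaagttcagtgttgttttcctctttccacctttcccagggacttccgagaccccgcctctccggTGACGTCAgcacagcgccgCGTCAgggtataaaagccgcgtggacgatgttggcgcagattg
Fos holds 2 half-sites, Fosb 1, Nr4a1 4 and Ppp1r15a 3, of which 2 lie in the palindrome TGACGTCA. Jun holds TGACATCA, a match of TGACNTCA, and no half-site. The half-site was present in 24 of the 40 listed immediate early genes with a promoter in the RefSeq table, of 54 listed, and in 23.0% of all 27025 genes in it. TGACGTCA was present in 4 of the 40 and in 2.03% of all genes, TGACNTCA in 8 and in 10.0%, and the CArG box, the site of serum response factor, in 3 and in 1.81%. These are matches of letters in a short window and not measured binding.

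Among 20944 genes tested, 26 (0.124%) differed between P and B at an adjusted p under 0.05, of which 8 (0.0382%) were higher and 18 (0.0859%) lower in P. The genes that rose were led by Fos and other immediate early genes. Of the 18 that fell, 5 are on the granulocyte and monocyte list, 2 on the T and NK cell list and 1 on the small nucleolar RNA list, and the other 10 are on none of the lists described. The median log2 fold change over all tested genes was -0.16, and 0.04 over the 11517 genes whose mean log2 CPM reached 2, called well-expressed below. The number of calls was 26 (17 higher and 9 lower) without P1, 3 without P2, 219 (25 and 194) without P3, 49 without B3, 6 without B5 and 3 without B6. With RLE size factors 9 genes were higher and 13 lower, so that 40.9% of calls were higher, against 30.8%, limma voom with quality weights called 133 higher and 141 lower, and DESeq2 125 and 222. With P and B fitted alone 1 of the 26 genes, Jun, stayed called and 25 did not, and with the replicate number as a block 0 genes were called.

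Of the 54 immediate early genes listed, all of which were tested, 5 were called higher in P and 0 lower, and the P and B libraries shared no range in 13, all of them higher in P, where 5.08% of all genes tested were higher without overlap and 5.91% lower. Their median log2 fold change was 0.49. Of the 36 that were well-expressed, the fold change was positive in 31 (86.1%), against 54.5% of all genes at that level. The list was chosen with the high Fos of the P libraries already known, so these counts describe it and do not test it.

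Fos (chr12:86814840-86818223 in NCBIM37, the mm9 build) encodes the AP-1 subunit that gives this gene class its best-known marker. Fos was at 11.5, 62.3 and 120.5 CPM in P1, P2 and P3, and at 1.68, 2.98, 1.55 and 2.82 CPM in B1, B3, B5 and B6. Every P library lay above every B library, and P1 had the lowest level of the P libraries. The means were 64.8 ± 54.5 CPM in P and 2.26 ± 0.748 CPM in B (SD, n = 3 and 4), with a log2 fold change of 4.82 ± 0.60 (SE, adjusted p = 0.00168, edgeR quasi-likelihood test). The lowest and highest values in the 9 libraries of A, C and D were 0.801 and 4.56 CPM. In the 12 CD150-negative libraries, none of which carries the letter P or W, the highest was 4.17 CPM of the library total. The call held when any 1 of the 7 libraries was left out (adjusted p up to 0.0126), and was lost with P and B fitted alone (0.0775).

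Jun (chr4:94715725-94718913), the usual partner of Fos in AP-1, was at 167, 339 and 407 CPM in P and at 28.6, 27.7, 15.8 and 45.5 CPM in B. No P library overlapped the B libraries, and the log2 fold change was 3.37 ± 0.56 (adjusted p = 0.0233). The call ended without P2, B5 or B6 (adjusted p = 0.142, 0.0845 and 0.0536). A gene on the other strand, BC042782, overlaps Jun, and since the strand setting of the counting is not given, their reads cannot be told apart.

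Fosb (chr7:19888070-19895394), a second Fos family subunit, was at 4.19, 9.99 and 21.6 CPM in P and at 1.34, 0.981, 1.36 and 1.36 CPM in B. The groups did not overlap, with a log2 fold change of 3.24 ± 0.55 (adjusted p = 0.0233) that was no longer called without P2, B5 or B6 (0.109, 0.0736 and 0.0794). Other AP-1 genes did not pass the test: Junb was at 23.0, 31.1 and 36.3 CPM in P and at 19.6, 17.6, 14.9 and 20.5 CPM in B (log2 fold change 0.73, adjusted p = 0.305). Jund was at 33.9, 40.4 and 52.6 CPM in P and at 33.4, 35.4, 35.2 and 35.2 CPM in B (0.28, adjusted p = 0.659). Of the 9 AP-1 genes listed, 3 were called higher and 0 lower, and their summed level was 250.3, 505 and 662 CPM in P1, P2 and P3, and 101, 98.5, 80.6 and 124 CPM in B1, B3, B5 and B6.

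Nr4a1 (chr15:101097277-101105223), an orphan nuclear receptor known to restrain proliferation of blood stem cells, was at 2.18, 48.1 and 45.5 CPM in P and at 4.26, 1.55, 2.46 and 2.60 CPM in B. P2 and P3 were far above B, while P1 lay inside the range of B. The log2 fold change was 3.55 ± 0.65 (adjusted p = 0.0307), and the call ended without P2, B3, B5 or B6 (0.250, 0.0524, 0.131 and 0.113). It was the 1 called of the 16 other immediate early transcription factors, whose median log2 fold change was 0.59. Of those not called, Ier2, a nuclear regulator, was at 35.7, 54.3 and 58.4 CPM in P and at 24.9, 23.5, 21.2 and 28.7 CPM in B (adjusted p = 0.0732). Egr1, a zinc finger activator, was at 9.87, 24.2 and 29.1 CPM in P and at 6.08, 9.24, 5.89 and 7.92 CPM in B (adjusted p = 0.146). Klf6 was at 39.8, 84.1 and 117 CPM in P and at 47.1, 31.3, 25.8 and 31.0 CPM in B, with P1 again inside the range of B (adjusted p = 0.0732). Myc, a member with high basal expression, was at 83.2, 99.2 and 93.0 CPM in P and at 95.9, 90.0, 89.4 and 91.9 CPM in B (adjusted p = 1.00).

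Ppp1r15a (chr7:52778286-52781638), which encodes the GADD34 subunit that directs the dephosphorylation of eIF2-alpha, was at 117, 201 and 219 CPM in P and at 71.3, 71.2, 38.7 and 66.0 CPM in B. All P libraries lay above B, with a log2 fold change of 1.53 ± 0.28 (adjusted p = 0.0339), and the call ended without P2, B1, B5 or B6 (0.250, 0.0536, 0.131 and 0.0945). Ppp1r15a overlaps the gene Tulp2 on the other strand. It was the 1 called of 29 feedback regulators and effectors, which had a median of 0.36. Dusp1, a phosphatase that inactivates MAP kinases, was at 18.7, 40.5 and 54.9 CPM in P and at 8.96, 8.42, 9.65 and 12.7 CPM in B without overlap (log2 fold change 1.94, adjusted p = 0.0732). Zfp36, which encodes the mRNA decay factor tristetraprolin, was at 10.0, 30.9 and 34.4 CPM in P and at 7.14, 7.15, 9.52 and 8.19 CPM in B (1.65, adjusted p = 0.146). Nfkbiz, which encodes a nuclear regulator of NF-kappaB, was at 20.3, 32.2 and 31.1 CPM in P and at 9.39, 9.68, 12.5 and 14.8 CPM in B (1.27, adjusted p = 0.0982).

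**Figure D1:**
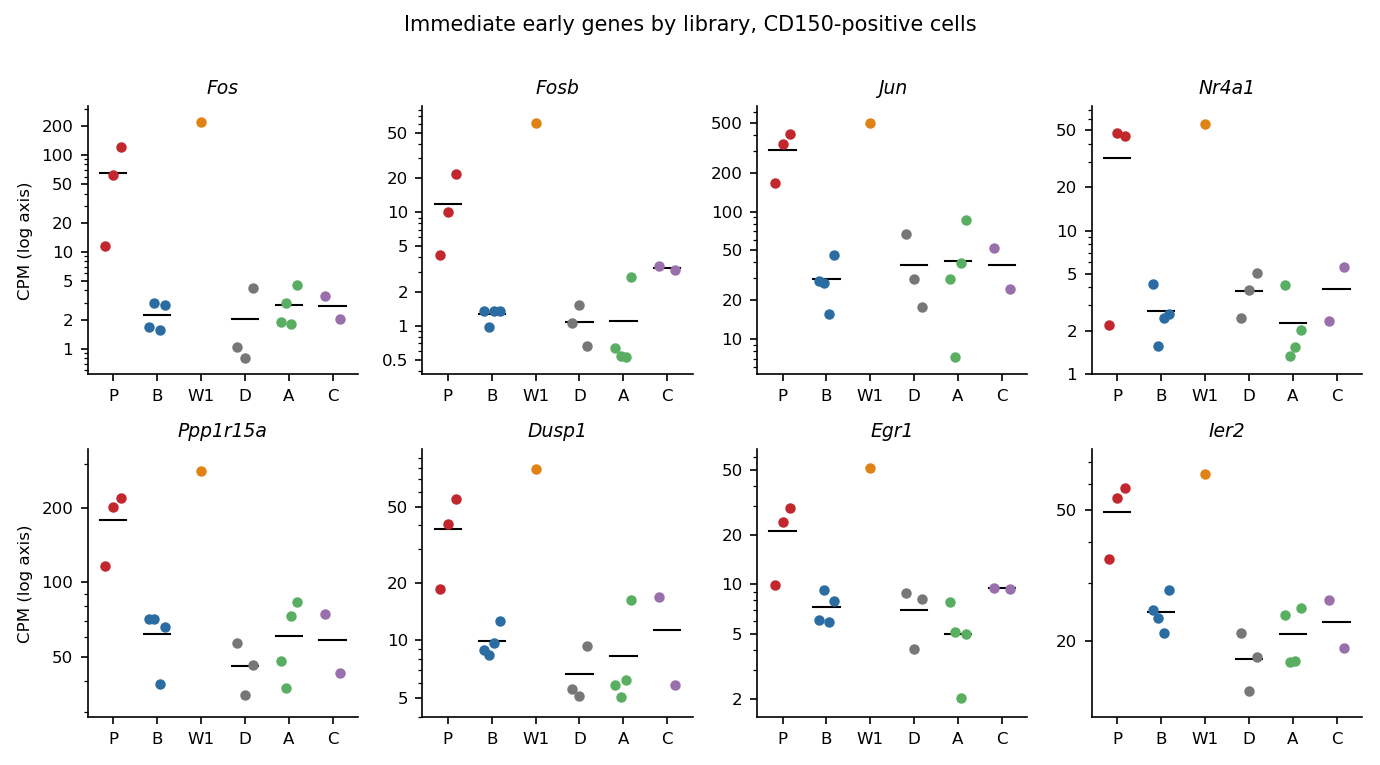
Level of 8 immediate early genes in each CD150-positive library, in TMM-scaled CPM on a log axis, for P, B, W1 and the groups D, A and C; bars are group means. Fos is at 11.5 to 120.5 CPM in P and at 1.55 to 2.98 CPM in B, and W1 is above every other library in all 8 panels.

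The P libraries were not alike in this gene class. P2 and P3 both exceeded P1 in 31 of the 36 well-expressed genes (86.1%), against 30.0% of all genes at that level. P1 had the lowest background, measured as the summed reads of odorant, pheromone and trace amine receptors, of all 17 libraries, at 608 CPM of its total, against 1375 and 3834 CPM in P2 and P3. In B1, B3, B5 and B6 this background was 3208, 1422, 7425 and 4569 CPM. With its log2 as a covariate, 15 of the 26 calls held and 11 ended, and Fos, Jun, Fosb, Nr4a1 and Ppp1r15a remained called (adjusted p = 7.17e-05, 0.00699, 0.000101, 0.00699 and 0.0330).

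Of 32 genes for MAP kinases, serum response factor, CREB and their partners, 0 were called by edgeR, where 0.124% of all genes were, and 0 had an unadjusted p under 0.05, against 11.7% of all. The median log2 fold change was 0.06, and -0.076 with receptor background as a covariate. Nras, a small GTPase at the head of the pathway, was at 64.1, 65.2 and 82.2 CPM in P and at 82.2, 73.4, 99.3 and 81.3 CPM in B. Creb1 was at 197, 199 and 169.8 CPM in P and at 171, 195, 114 and 142 CPM in B.

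The lists of other stress programmes held 0 genes called in edgeR, where 0.124% of all genes were called. Ppp1r15a, which acts on eIF2-alpha and was called, is listed with the feedback regulators and not on these lists. Over all tested genes, 4.00% were higher and 7.71% lower in P at an unadjusted p under 0.05. Among 26 heat shock chaperones the median was 0.13, with 0 members higher and 1 lower at an unadjusted p under 0.05. Hsp90aa1, the inducible HSP90, was at 3193, 3477 and 3150.5 CPM in P and at 2621, 3014, 1603 and 2234 CPM in B (adjusted p = 0.475). Among 28 genes of the integrated stress and unfolded protein responses the median was -0.10, with 2 members higher and 5 lower at an unadjusted p under 0.05. Atf4, the transcription factor of the integrated stress response, was at 162, 176 and 176 CPM in P and at 125, 155, 105 and 103 CPM in B (adjusted p = 0.332). Chac1 and Xbp1, which had smaller p, were among the members that fell. Chac1 was near the floor, at 0 in every P library and at 0.575, 0.817, 0.259 and 0.868 CPM in B. Xbp1 was at 48.4, 52.9 and 38.4 CPM in P and at 131, 74.6, 58.0 and 48.3 CPM in B (log2 fold change -0.74). The 41 p53 targets had a median of 0.22, with 3 higher and 1 lower at an unadjusted p under 0.05. Pmaip1, which encodes the BH3-only protein Noxa, was at 11.5, 23.0 and 16.4 CPM in P and at 3.88, 7.97, 4.92 and 3.15 CPM in B without overlap (log2 fold change 1.77, adjusted p = 0.0901).

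The other 3 genes that rose in P are not on the immediate early lists. Taf7 (adjusted p = 0.0233), a subunit of the general factor TFIID, was at 69.6, 111 and 88.2 CPM in P and at 40.5, 49.2, 19.6 and 33.5 CPM in B (log2 fold change 1.33 ± 0.23), and the call ended without P2 or B6 (0.250 and 0.0860). Chdh, choline dehydrogenase, was at 18.5, 41.0 and 16.4 CPM in P and at 8.19, 7.11, 6.54 and 4.29 CPM in B (1.95 ± 0.37, adjusted p = 0.0350), and overlaps Cacna1d on the other strand. That call ended without P2, B1, B5 or B6 (0.421, 0.0536, 0.131 and 0.118). Tespa1, known for its part in T cell receptor signalling, was at 32.9, 53.4 and 38.8 CPM in P and at 14.6, 21.1, 10.3 and 13.3 CPM in B (1.49 ± 0.28, adjusted p = 0.0350), a call lost without P2, B1, B5 or B6 (0.356, 0.0860, 0.131 and 0.115). The groups did not overlap in any of these 3 genes.

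Of 24 granulocyte and monocyte genes tested, 5 were called lower in P (S100a8, S100a9, Camp, Ltf and Lcn2) and 0 higher, while the median of the list was -0.05. At an unadjusted p under 0.05, 3 were higher and 8 lower, against 4.00% and 7.71% of all tested genes. Genes of the list that mature neutrophils also express did not all move with the 5: the log2 fold change was 0.16 for Itgam, 0.49 for Csf3r, 0.23 for Fcgr3 and -0.15 for Lyz2 (adjusted p = 0.793, 0.305, 0.728 and 0.746). Chi3l3, a chitinase-like protein of myeloid cells that is not on that list, was also called lower. In bulk libraries, fewer cells of a type and less RNA per cell cannot be told apart.

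S100a8 and S100a9 encode the subunits of calprotectin, the main cytosolic protein of neutrophils. S100a8 (chr3:90472993-90473956) was at 3.84, 1.66 and 6.06 CPM in P and at 14.9, 15.9, 104 and 57.7 CPM in B, with a log2 fold change of -3.66 ± 0.58 (adjusted p = 0.0184). S100a9 (chr3:90496554-90499643) was at 13.2, 22.9 and 26.5 CPM in P and at 50.7, 46.5, 201 and 213 CPM in B (-2.62 ± 0.46, adjusted p = 0.0233). For both genes every P library lay below every B library, and B5 and B6 were the highest. The S100a8 call ended without P2 or B6 (0.187 and 0.0536), and that of S100a9 without P1, P2, B5 or B6 (0.101, 0.250, 0.0845 and 0.0794).

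The other 3 genes called lower on the list, Camp, Ltf and Lcn2, encode granule proteins and were also highest in B5 and B6. Camp, the cathelicidin, was at 4.63, 3.31 and 2.87 CPM in P and at 8.96, 10.2, 37.6 and 32.5 CPM in B (-2.62 ± 0.50, adjusted p = 0.0369). Ltf, lactoferrin, was at 11.5, 10.97 and 11.1 CPM in P and at 25.3, 24.1, 79.9 and 91.4 CPM in B (-2.30 ± 0.41, adjusted p = 0.0251). Lcn2, an iron-scavenging lipocalin, was at 0.655, 1.34 and 0.912 CPM in P and at 3.69, 5.48, 16.1 and 16.2 CPM in B (-3.40 ± 0.66, adjusted p = 0.0387). In each of the 3 genes the groups did not overlap. Without P1, P2, B5 or B6 all of these calls ended, at 0.0866, 0.328, 0.131 and 0.115 for Camp, 0.0843, 0.250, 0.0982 and 0.0860 for Ltf, and 0.179, 0.250, 0.131 and 0.115 for Lcn2.

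Chi3l3 was at 3.58, 2.15 and 3.26 CPM in P and at 9.10, 9.11, 30.9 and 28.1 CPM in B (-2.68 ± 0.46, adjusted p = 0.0233). Its call ended without P2, B5 or B6 (0.250, 0.0736 and 0.0794), and it is uncertain because a near-identical copy, Chi3l4, overlaps it. Ngp, another late granule gene, was at 10.6, 7.16 and 5.28 CPM in P and at 14.1, 15.2, 60.0 and 64.7 CPM in B and was not called (adjusted p = 0.0732). With receptor background as a covariate S100a8 stayed called (0.0378), whereas S100a9, Chi3l3, Camp, Ltf and Lcn2 did not (0.0674, 0.0643, 0.129, 0.0788 and 0.0791).

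Early granule genes, which progenitors already transcribe, did not pass the test in either direction. Mpo, myeloperoxidase, was at 380.3, 654 and 384 CPM in P and at 198, 365, 119 and 129 CPM in B (log2 fold change 1.22, adjusted p = 0.234). Ctsg, cathepsin G, was at 43.7, 71.7 and 42.2 CPM in P and at 22.4, 47.6, 14.9 and 17.3 CPM in B (1.04, adjusted p = 0.373). Elane, neutrophil elastase, was at 18.5, 38.9 and 23.6 CPM in P and at 25.1, 51.4, 20.4 and 23.5 CPM in B (-0.16, adjusted p = 0.870). The summed level of the whole list was 945.6 to 1287 CPM in P and 834 to 1095 CPM in B, so that the groups overlapped, and 0 of its 24 genes were at 0 in any P or B library.

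**Figure D2:**
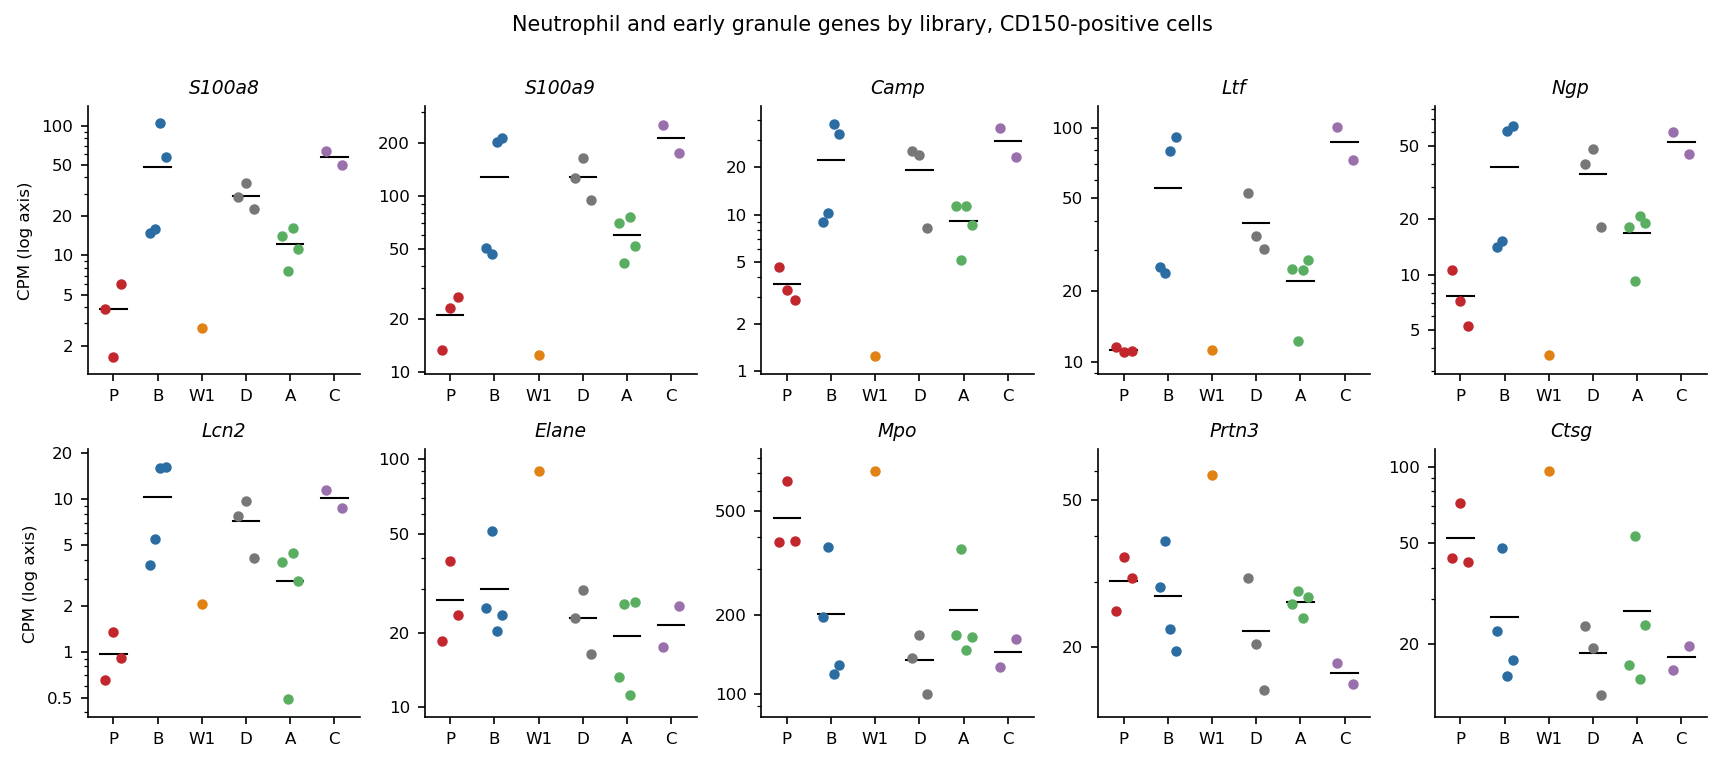
Level of 6 genes of late neutrophil precursors and neutrophils (S100a8 to Lcn2) and of 4 early granule genes (Elane to Ctsg) in each CD150-positive library, in TMM-scaled CPM on a log axis; bars are group means. S100a8 is at 1.66 to 6.06 CPM in P and 14.9 to 104 CPM in B, while Mpo is at 380.3 to 654 CPM in P and 119 to 365 CPM in B.

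Of 20 T and NK cell genes, most of them at low levels, 2 (Cd3g and Cd5) were called lower in P and 0 higher. At an unadjusted p under 0.05, 10 were lower, against 7.71% of all tested genes, and 0 of the 20 had a positive fold change, against 38.7% of all. Their median was -1.39, and -0.44 and -0.62 over the 12 members in the deposited CPM table with 1 and 0.1 added. The receptor genes that measure background, also near 0, had a median of -1.52 over the 799 tested, and the part of background in the T cell median was not tested beyond the covariate, with which it was -1.18. The summed level of the list was 60.1, 71.8 and 91.9 CPM in P1, P2 and P3, and 134, 124, 146 and 134 CPM in B1, B3, B5 and B6, without overlap. Of the 20 genes, 5 were at 0 in at least 1 P library and 0 in any B library.

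Cd3g, a chain of the T cell receptor complex, was at 0, 0.179 and 1.95 CPM in P and at 10.1, 13.5, 6.22 and 9.01 CPM in B (-3.90 ± 0.71, adjusted p = 0.0307). The call ended without P2, B5 or B6 (0.291, 0.0530 and 0.0794). Cd5, a receptor of T cells and some B cells, was at 0.175, 0.134 and 0.391 CPM in P and at 3.64, 4.58, 1.55 and 2.60 CPM in B (-3.74 ± 0.71, adjusted p = 0.0350), and this call ended without any 1 of 6 libraries, all but P3 (0.0530 to 0.328). Cd3e, the signalling chain of the same complex, was at 0, 0.224 and 0.586 CPM in P and at 1.29, 4.45, 6.54 and 1.95 CPM in B without a call (adjusted p = 0.127).

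Il2rb and Skap1, which are not on that list, fell too. Il2rb, the shared beta chain of the IL-2 and IL-15 receptors, was at 0.349, 0.806 and 1.43 CPM in P and at 10.97, 8.70, 6.02 and 4.12 CPM in B (-3.14 ± 0.49, adjusted p = 0.0169), a call that ended only without P2 (0.147) among the 7 libraries. Skap1, an adaptor of T cell receptor signalling, was at 0.524, 0.269 and 0.521 CPM in P and at 4.26, 3.23, 2.78 and 3.58 CPM in B (-2.98 ± 0.51, adjusted p = 0.0233), a call lost without P2 or B6 (0.250 and 0.0794). The groups did not overlap in Cd3g, Cd5, Il2rb or Skap1, and all 4 genes remained called with receptor background as a covariate (0.00786, 0.0114, 0.00508 and 0.00896). B lineage genes had 0 calls of 16 in edgeR, with 2 lower and 0 higher at an unadjusted p under 0.05 and a median of -1.22, and spread widely within each group: Igj, the J chain of antibodies, was at 407, 486 and 12.5 CPM in P and at 2448, 1043, 80.6 and 64.7 CPM in B.

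Short structured RNAs were among the other genes that fell. Rmrp, the RNA of the RNase MRP particle that processes ribosomal RNA, was at 211, 197 and 252 CPM in P and at 477, 567, 1491 and 856 CPM in B (-1.95 ± 0.37, adjusted p = 0.0350). Terc, the RNA template of telomerase, was at 2.36, 2.15 and 2.15 CPM in P and at 8.14, 8.34, 27.5 and 10.9 CPM in B (-2.62 ± 0.50, adjusted p = 0.0350). Snora74a, an H/ACA small nucleolar RNA that lies within its host gene Snhg4, was at 15.8, 16.3 and 19.02 CPM in P and at 45.0, 38.3, 53.8 and 59.7 CPM in B (-1.53 ± 0.26, adjusted p = 0.0233). In each of the 3 RNAs the P libraries lay close together below all B libraries. Every one of these calls ended without P1, P2, B5 or B6, at adjusted p-values of 0.139, 0.328, 0.131 and 0.0945 for Rmrp, 0.110, 0.304, 0.131 and 0.0794 for Terc, and 0.0879, 0.250, 0.0736 and 0.0794 for Snora74a.

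Of 93 small nucleolar and Cajal body RNAs tested, 16 were lower and 1 higher at an unadjusted p under 0.05, against 7.71% and 4.00% of all tested genes. Snora74a was the only call among these 93 RNAs, which had a median of -0.56. Their summed level was 332, 366 and 318 CPM in P1, P2 and P3, and 419, 465, 823 and 701 CPM in B1, B3, B5 and B6, without overlap. Lars2, the mitochondrial leucyl-tRNA synthetase, whose gene holds a stretch resembling ribosomal RNA, was at 104, 67.3 and 98.3 CPM in P and at 318, 134, 694 and 287 CPM in B (-1.99 ± 0.39, adjusted p = 0.0455). That call ended without P1, P2, B1, B5 or B6 (0.110, 0.421, 0.0752, 0.131 and 0.0871). With receptor background as a covariate, Snora74a stayed called (0.0290), and Rmrp, Terc and Lars2 did not (0.0649, 0.0613 and 0.231).

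**Figure D3:**
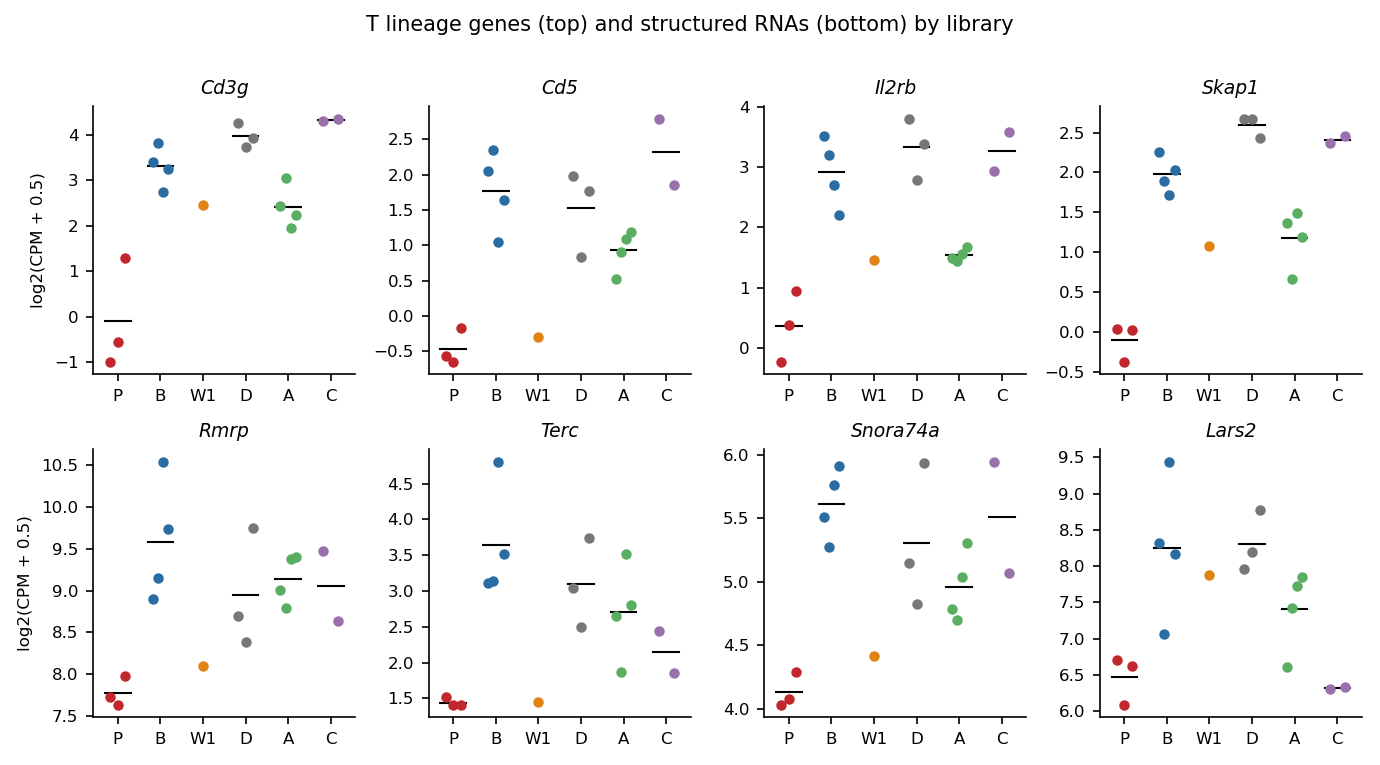
Level of 4 T lineage genes (top) and of Rmrp, Terc, Snora74a and Lars2 (bottom) in each CD150-positive library, as log2 of TMM-scaled CPM plus 0.5; bars are group means of these values. The 3 P libraries lie below all 4 B libraries in each panel, for example at 197 to 252 CPM against 477 to 1491 CPM for Rmrp.

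The remaining 4 genes that fell have no place in the groups above. 5830416I19Rik, a long non-coding RNA gene, was at 0.349, 1.30 and 1.43 CPM in P and at 9.01, 6.13, 11.9 and 11.9 CPM in B (-3.26 ± 0.44, adjusted p = 0.00325), and like Fos it stayed called without any 1 of the 7 libraries (up to 0.0239). Bhlhe41, a circadian transcriptional repressor, was at 0.917, 0.537 and 0.261 CPM in P and at 4.74, 3.02, 8.55 and 2.82 CPM in B (-3.02 ± 0.59, adjusted p = 0.0417), a call lost without P2, B1, B5 or B6 (0.328, 0.0807, 0.168 and 0.0794). Fam198b was at 6.51, 9.14 and 18.9 CPM in P and at 39.6, 26.7, 47.7 and 39.2 CPM in B (-1.74 ± 0.34, adjusted p = 0.0387), and Tmem38b, a cation channel of the endoplasmic reticulum, at 5.81, 8.06 and 7.88 CPM in P and at 17.1, 14.8, 17.03 and 16.8 CPM in B (-1.18 ± 0.23, adjusted p = 0.0400). Both of those calls ended without P1, P2, B1, B5 or B6 (0.186, 0.393, 0.0763, 0.131 and 0.111 for Fam198b, and 0.226, 0.250, 0.0868, 0.131 and 0.115 for Tmem38b).

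Stem cell identity genes gave 0 calls of 31 in edgeR, where 0.124% of all genes were called, and a median of -0.05. At an unadjusted p under 0.05, 1 was higher and 5 lower, against 4.00% and 7.71% of all tested genes. Cd34 was at 279.9, 388 and 356 CPM in P and at 219, 239.9, 152 and 168 CPM in B (adjusted p = 0.233), and Hoxb4, a homeobox gene of stem cell self-renewal, at 17.3, 20.2 and 15.8 CPM in P and at 25.5, 24.7, 45.1 and 32.2 CPM in B (adjusted p = 0.293). Both genes were without overlap between the groups.

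Of 19 genes of multipotent progenitors and lymphoid priming 0 were called by edgeR, where 0.124% of all genes were. At an unadjusted p under 0.05, 4 were higher and 4 lower, against 4.00% and 7.71% of all tested genes. The median log2 fold change was -0.31, and 0.36 over the 12 well-expressed members, and 8 of the 19 had a positive fold change. Flt3, the cytokine receptor that marks multipotent progenitors, was at 96.7, 191 and 105 CPM in P and at 67.7, 80.8, 30.2 and 38.0 CPM in B (log2 fold change 1.27, adjusted p = 0.114). Satb1, a chromatin organiser of lymphoid priming, was at 55.7, 81.9 and 40.5 CPM in P and at 29.1, 31.8, 14.6 and 21.4 CPM in B (1.29, adjusted p = 0.0784). The P libraries lay above the B libraries in both of these genes, which did not pass the test. Ikzf3 and Il7r went the other way (-2.62 and -1.38, adjusted p = 0.0982 and 0.257) and did not pass it either.

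No megakaryocyte or erythroid gene was called by edgeR. Of 22 megakaryocyte genes 0 had a positive fold change, against 38.7% of all tested genes, 10 were lower at an unadjusted p under 0.05, against 7.71% of all, and the median was -0.72. Pf4, a platelet chemokine, was at 121, 88.4 and 59.2 CPM in P and at 186, 173, 179 and 230.2 CPM in B (adjusted p = 0.165). Of 16 erythroid genes 0 had a positive fold change and 6 were lower at an unadjusted p under 0.05, with a median of -0.95, and Gata1, the transcription factor of both lineages, was at 42.5, 25.2 and 27.4 CPM in P and at 49.2, 56.8, 55.6 and 48.7 CPM in B (adjusted p = 0.320).

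Further groups held no call. Mast cell and basophil genes (14 tested) had a median of 0.20, stromal and endothelial genes (15) -0.52, mitosis genes (42) 0.05 and DNA replication genes (42) 0.20. The sign turned with receptor background as a covariate for stroma (0.22) and mitosis (-0.14), and the 6 well-expressed stromal genes had a median of 0.05. The 83 cytosolic ribosomal protein genes had a median of -0.32, with 34 lower and 0 higher at an unadjusted p under 0.05. Rps29 was at 106, 93.2 and 102 CPM in P and at 171, 169, 366 and 227 CPM in B (adjusted p = 0.0566). Clustered histone genes (63) had a median of -0.30, with 27 lower and 0 higher at an unadjusted p under 0.05. Over all genes tested, 2451 (11.7%) had an unadjusted p under 0.05. The 9 lists not described here held 0 calls among 340 tested entries, with medians of -0.24 to 0.16.

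**Figure D4:**
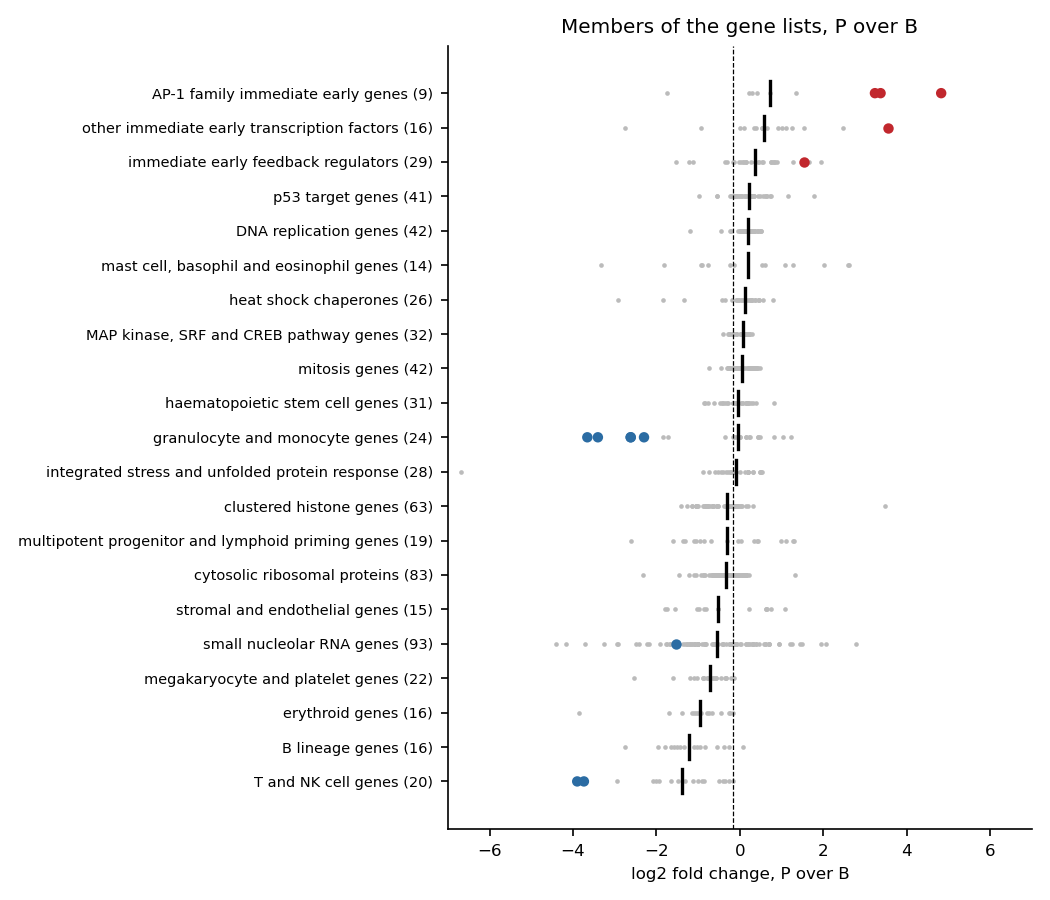
Log2 fold change of P over B for each tested member of the gene lists described (grey points; red, called higher in P; blue, called lower), with the number of members in brackets; black bars are list medians and the dashed line the median of all tested genes, -0.16. Called members lie on 6 lists, the 3 of immediate early genes (median 0.36 to 0.73) on the side of P and those of granulocyte, T cell and small nucleolar RNA genes on the side of B.

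Among the called genes P lay outside the range of the libraries of A, C and D more often than B did. These genes were selected for a difference between P and B. The condition is also easier to meet for 3 P libraries than for 4 B libraries, so the counts describe the genes and test nothing. Of the 26 called genes, all 3 P libraries lay outside the range of the 9 libraries of A, C and D in 21 genes, and all 4 B libraries in 0. Over all tested genes this was so for 3.28% and 0.119%. With W1 added to the others, P lay outside the range in 7 of the 26 genes and B in 0, against 1.70% and 0.0764% of all tested genes.

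W1, the wild-type library, was on the same side as P. In wild type, the log2 difference of W1 from D had the sign of P minus B in 26 of the 26 called genes, against 68.9% of all tested genes, and W1 lay beyond every D library in that direction in 25, against 38.8% of all. Receptor background was 2542 CPM in W1, below the 3438, 8116 and 3141 CPM of D1, D2 and D3-4. The tested receptor genes had a median log2 fold change of -4.09 for W1 over D and -1.52 for P over B. The part of this background in the match between both comparisons was not tested. W1 is a single library, so its test assumes that it varies like the other groups. In W1 against D, 14 genes (0.0668%) were called, 11 (0.0525%) higher and 3 (0.0143%) lower in W1, and 1595 had an unadjusted p under 0.05. The calls fell to 8 without D1, 3 without D2 and 5 without D3-4. Called in both comparisons were 4 genes (Fos, Fosb, Ppp1r15a and 5830416I19Rik), which are 15.4% of the calls in P against B and 28.6% of those in W1 against D.

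Immediate early genes made up most of the calls in W1. Of the 54, 8 were called higher and 0 lower (Fos, Fosb, Ppp1r15a, Dusp1, Egr1, Ier2, Klf6 and Zfp36), and W1 was above every D library in 33 of the 36 well-expressed ones (91.7%), against 34.8% of all genes at that level. Fos was at 218 CPM in W1 and at 1.05, 0.801 and 4.23 CPM in D1, D2 and D3-4 (log2 fold change 6.67 ± 0.78, adjusted p = 0.000660). Dusp1 was at 78.9 CPM in W1 and at 5.55, 5.12 and 9.34 CPM in D (3.55 ± 0.56, adjusted p = 0.0118). Jun was at 492 CPM in W1 and at 66.2, 29.6 and 17.9 CPM in D and was not called (3.70, adjusted p = 0.0751). W1 exceeded all P libraries in each of these 3 genes.

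Of the 18 genes that fell in P, W1 lay below every D library in 17, the exception being Bhlhe41, and 5830416I19Rik was the 1 called lower in W1. Bhlhe41 was at 2.65 CPM in W1 and at 1.998, 5.605 and 2.995 CPM in D (adjusted p = 0.910). S100a8 was at 2.74 CPM in W1 and at 28.0, 35.9 and 22.9 CPM in D (log2 fold change -3.39, adjusted p = 0.403), and Terc was at 2.25 CPM in W1 and at 7.71, 5.12 and 12.9 CPM in D (-1.94, adjusted p = 0.621). 5830416I19Rik was at 0.808 CPM in W1 and at 10.4, 12.0 and 22.8 CPM in D (-4.21 ± 0.76, adjusted p = 0.0306). Among genes that did not pass the test between P and B, Mpo was at 711 CPM in W1 and at 138, 168 and 99.6 CPM in D (2.39, adjusted p = 0.0780).

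A test of the difference between P minus B and W1 minus D called 1 gene (0.00477%), Eda2r, a p53 target of the TNF receptor family, and 686 had an unadjusted p under 0.05. Eda2r was at 29.3, 29.9 and 29.8 CPM in P and at 24.1, 32.2, 27.8 and 33.4 CPM in B, and at 0 in W1 against 4.22, 1.52 and 4.14 CPM in D (adjusted p = 0.00292). A floor of 3 counts for W1 makes it at least 24.4-fold lower than the D mean. For Fos the difference was -1.85 ± 0.96 and did not pass the test (adjusted p = 1.00). Across genes, which are not independent replicates, the log2 fold changes of P over B and of W1 over D had a Pearson r of 0.31 over all tested genes and 0.61 over the well-expressed ones.

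**Figure D5:**
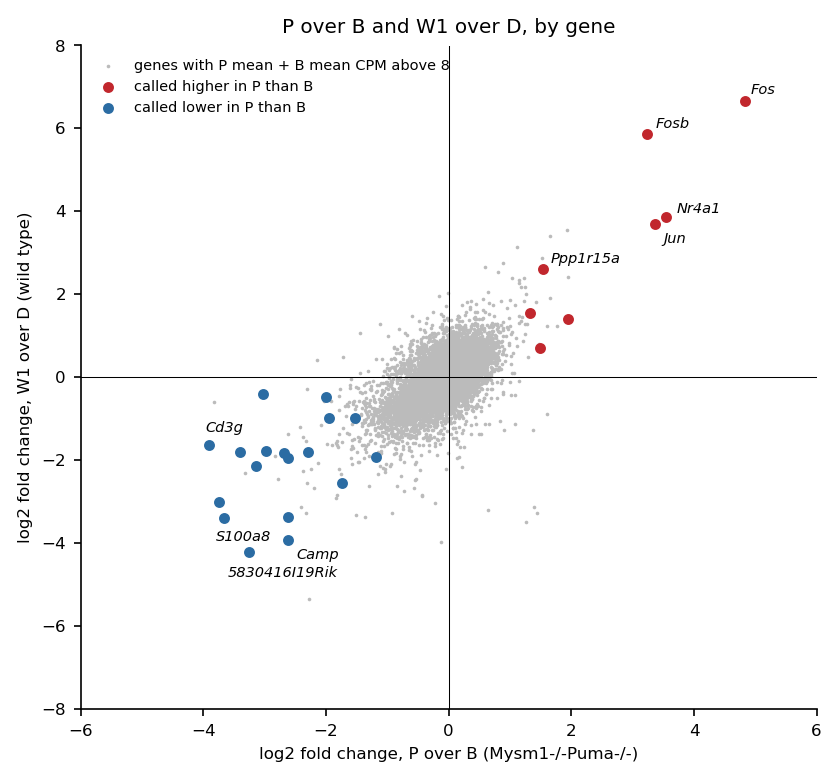
Log2 fold change of P over B (horizontal, Mysm1-/-Puma-/-) against that of W1 over D (vertical, wild type), which share no library; grey, genes whose P and B mean CPM sum to more than 8 CPM (11570 drawn, 2 beyond the axes); coloured, the genes called between P and B. All 26 coloured genes lie in the quadrants where both differences have the same sign, with Fos at 4.82 and 6.67.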

How the data were processed

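Read counts per gene symbol for 23366 genes were deposited by the authors, 1 file per library. The submitters' processing notes name TopHat2 2.0.9, Bowtie 1.0.0 and genome build mm9, besides FastQC, Trimmomatic 0.33, featureCounts, R 3.4.2 and edgeR, without an order. The strand setting and annotation are not given in the sources used here. A deposited table of CPM normalized by the authors, with 12578 genes, served as an alternative.

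The counts of 17 CD150-positive libraries in 6 groups (P, B, A, C, D and W1) were fitted together with edgeR 4.0.16 in R 4.3.3, with TMM scaling, filterByExpr (W1 counted with D; 20944 genes kept), the quasi-likelihood F test and Benjamini-Hochberg adjustment over all genes tested. A gene was called at an adjusted p under 0.05. There were 11 residual degrees of freedom. Standard errors were approximated from each log2 fold change and its F value. Levels are TMM-scaled CPM, and background is the CPM of 1464 receptor genes in the library total. The fit was tested on simulated counts. It recovered 38% of genes set to a log2 fold change of -1, 60% of those at 1, and 96% of those at -2 and at 2. Of 152 simulated calls, 7 were false, so a gene that was not called may still differ.

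The members, the comparison and the 32 gene lists were chosen with earlier results of these data known. Named were Fos, Mysm1 and Bbc3, the 12 largest rises and 12 largest falls among calls without overlap whose mean log2 CPM reached 2, leaving out predicted names, and up to 4 members of each list described with the smallest p. The other called genes and the further list members (such as Jund, Myc, Ngp, Mpo, Elane, Ctsg and Igj) were named after their values were seen. Gene positions are from GENCODE vM1 (NCBIM37) and promoters from RefSeq (GRCm38.p6). Alternatives used DESeq2 1.42.0, limma 3.58.1 and other settings given in the closing section.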

Additional observations from a re-analysis of the deposited data

Results flagged for a closer look

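Of 125 sets of values from the 4 B libraries, 14 had 1 library whose gap to the nearest other, as a share of the whole range, passed Dixon's critical value at the 95% level, where chance gives about 1 in 20. B5 was the library apart for Ppp1r15a (0.836, at 38.7 CPM), Terc (0.857), Ms4a1 (0.888), Rpl37a (0.938), Hist1h4c (0.894), Hist1h4j (0.928), Hist1h4i (0.940) and the summed stem cell genes (0.839, at 3850 CPM where the highest B library had 5079 CPM). B3 was apart for Tmem38b (0.896), Fosb (0.952) and Il6st (0.842), each within a narrow range (0.981 to 1.36 CPM for Fosb), and B1 for Cd79a (0.979), Alas2 (0.891) and the summed granulocyte and monocyte genes (0.851). B5 also had the highest receptor background of the B libraries, 7425 CPM, and its part in these values was not tested.

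The difference between P minus B and W1 minus D passed its own test for Eda2r, with a fitted log2 difference of 9.10, which is no bound because W1 had a count of 0.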

How the results depend on the processing

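The number of called genes depended on the test and on single libraries. In place of 26 calls between P and B (8 higher, 18 lower), DESeq2 gave 347 (125 and 222), limma voom with quality weights 274 (133 and 141), limma-trend on the deposited CPM plus 1 gave 43 (15 and 28) and plus 0.1 also 43 (13 and 30). With receptor background as a covariate there were 26 (13 and 13), and with P and B fitted alone 1 (1 and 0), which was Jun, where Fos was at 4.83 (adjusted p = 0.0775). RLE size factors, no filter on low counts and thinned counts gave 22, 32 and 23. With 1 of the 7 libraries left out, the calls ranged from 3 to 219, those higher from 1 to 25 and those lower from 2 to 194. Of the 26 calls, 24 ended without P2, 23 without B6, 20 without B5, 11 without P1, 8 without B1, 2 without B3 and 0 without P3. DESeq2 kept all 26, and no value of a called gene changed sign under any alternative. Calls between W1 and D numbered 74 with DESeq2, 9 with voom and 23 with the covariate, and 3 to 8 with 1 D library left out. The call of the difference became 0 with voom.

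P and B share the numbers 1 and 3, and the labels do not say whether these pair the libraries. Deviations from the group means correlated at 0.02 for P1 with B1 and -0.63 for P3 with B3. Pairs of unlike number ranged from -0.34 (P1 with B6) to 0.54 (P1 with B3). With so few libraries in each group these values cannot decide whether the numbers pair them. With the number as a replicate block, 0 genes were called (0 higher, 0 lower) and Fos was at 4.46 (adjusted p = 0.116). Under the block the list medians were -0.10 for heat shock, 0.087 for replication and 0.10 for small nucleolar RNAs.

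Of 357 list medians under alternatives, 341 stayed within 1 SD between libraries of the main value. With the covariate, medians were -0.076 for MAP kinase and serum response genes, 0.054 for p53 targets, 0.22 for stroma, -0.14 for mitosis and 0.082 for replication. On the deposited CPM plus 1 and plus 0.1 they were -0.44 and -0.62 for T and NK cells, -0.24 and -0.27 for B cells, and 0.082 and 0.12 for multipotent progenitors. For W1 over D the immediate early transcription factors were at 0.93 with voom and 0.91 with the covariate, and at 0.52 to 1.01 with 1 D library left out. With 1 of the P or B libraries left out, p53 targets ranged from 0.092 to 0.27 and histones from -0.57 to -0.21. Low counts limit the T cell genes, which reach 0 in some P libraries.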

Other observations

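Some genes that were called in W1 against D are not immediate early genes. Il6st, the shared receptor chain gp130 of the IL-6 family, was at 75.3 CPM in W1 and at 37.2, 34.1 and 33.4 CPM in D (log2 fold change 1.11 ± 0.19, adjusted p = 0.0221), and at 55.0, 57.6 and 53.8 CPM in P and 38.8, 43.5, 39.3 and 38.5 CPM in B without a call (adjusted p = 0.234). Rasa4, a GTPase activator that acts on Ras, was at 26.8 CPM in W1 and at 5.72, 6.25 and 4.71 CPM in D (2.27 ± 0.39, adjusted p = 0.0221), and at 22.4, 24.3 and 15.6 CPM in P and 8.29, 9.68, 10.0 and 9.39 CPM in B (adjusted p = 0.127). Epha2, an ephrin receptor, was at 6.38 CPM in W1 and at 0.777, 1.36 and 0.925 CPM in D (2.66 ± 0.50, adjusted p = 0.0435), and at 22.5, 20.1 and 21.2 CPM in P and 14.4, 17.7, 14.8 and 9.60 CPM in B (adjusted p = 0.474). Gp1bb, a platelet adhesion receptor subunit, was at 0 in W1 against 3.55, 5.44 and 2.64 CPM in D, which is at least 28.8-fold lower than the D mean with a floor of 3 counts (adjusted p = 0.0174).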
